A study of Mus musculus with 12 samples.

Results

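Cadherins are cell surface proteins with repeated extracellular domains that bind calcium and stick to cadherins of a neighbouring cell. The classical members hold adherens junctions together by tying the membrane to catenins and actin, the desmosomal members tie it to intermediate filaments, and most nonclustered protocadherins are known from the brain, where they sort axons and synapses. In mouse embryonic stem (ES) cells the compact colony depends on E-cadherin, encoded by Cdh1. The genes described here are those whose symbol is Cdh, Cdhr or Pcdh with a number, or a desmocollin (Dsc) or desmoglein (Dsg). The rule found 52 of 57180 listed genes, with 51 distinct symbols since Cdhr17 was listed under 2 identifiers. It used names only and no measured value.

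RNA of mouse C57BL/6 ES cells was sequenced in 4 groups with 3 libraries each. The null groups each lack 1 subunit of the HUSH complex, which silences retroelements and other transcription units through methylated histone H3 lysine 9: MP8 cells are null for Mphosph8 (protein MPP8), Tas cells for Tasor and Pph cells for Pphln1 (periphilin). WT cells carry none of these losses. The labels state no treatment, and they do not say how the null alleles were made, how many clones were used or whether libraries of a group came from separate cultures, so the tests speak to variation among libraries, which may be technical.

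Library totals were 17918770 to 20015735 estimated counts in MP8, 18898952 to 21112986 in Tas, 17996836 to 19697066 in Pph and 20392235 to 21962079 in WT. Each null group had less of the transcript it was named for than WT cells, with residual Tasor and Pphln1 counts. Mphosph8 stood at 0.306 ± 0.35 CPM (counts scaled to the effective library size) in MP8 cells, against 113 ± 3.23 CPM in WT cells, Tasor at 31.9 ± 1.19 CPM in Tas cells, against 126 ± 2.7 CPM in WT cells, and Pphln1 at 21.3 ± 1.66 CPM in Pph cells, against 68.5 ± 2.91 CPM in WT cells (SD, n = 3 each). The 8 ES cell markers summed to 3130 to 3160 CPM in MP8, 3440 to 3450 CPM in Tas, 2800 to 2900 CPM in Pph and 3580 to 3770 CPM in WT libraries. All 8 were called lower in Pph, 7 in MP8 and 5 in Tas, beside 25.7%, 32.2% and 25.5% of all tested genes. Tdgf1 was called higher in MP8 and Tas (log2 fold change 0.1 and 0.11), and Zfp42 was called higher in Tas (0.63). Trophectoderm markers summed to 793 to 837 CPM in Pph libraries, against 100 to 103 CPM in WT libraries, and feeder fibroblast markers to 47.9 to 48.1 CPM in Pph libraries, against 16.3 to 16.8 CPM in WT libraries. The trophectoderm sum was 112 to 117 CPM in MP8 and 72.7 to 75.4 CPM in Tas libraries, and the fibroblast sum 24.3 to 25.8 CPM in MP8 and 12.5 to 14.7 CPM in Tas libraries. The keratins Krt8 and Krt18 made up most of the trophectoderm sum, at 440 and 292 CPM in Pph and 47.6 and 32.8 CPM in WT. Cdx2 stood at 2.31 CPM in Pph, against 0.254 CPM in WT, and Eomes and Tfap2a were not called in Pph. In bulk RNA, more cells of a type and more RNA per cell cannot be told apart.

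Of the 52 genes, 28 had enough counts for a test. Those were all 5 classical type I cadherins, 9 of 13 type II cadherins, 3 of 4 delta-1 and 4 of 5 delta-2 protocadherins, 3 of 9 desmosomal cadherins, 2 of 8 cadherin-related genes, Cdh13 and Pcdh15. Of these, 20 reached 0.504 CPM, the level the filter asks for, in all 3 WT libraries. The other 8 (Cdh8, Cdh11, Cdh18, Cdh20, Cdhr18, Dsc3, Pcdh7 and Pcdh8) passed only through null libraries, so that a difference was built into their selection. The 24 untested genes held at most 19 counts in any library, and 1 Cdhr17 identifier, Dsg1a and Dsg1c had none. Dsg1b, Dsg4, Dsc1 and Cdh16 had a count in a single library each. Pcdh10, a delta-2 protocadherin, had 35 counts over the MP8 libraries, 14 over Tas, 4 over Pph and 3 over WT. Pcdh20 had 26, 3, 6 and 13 counts in the same groups and Cdhr2 15, 9, 9 and 1. Cdh5 (VE-cadherin of endothelium), Cdh7, Cdh17, Cdh19, Cdh22, Cdh23, Cdh26, Cdhr3, Cdhr4, Cdhr5, Dsg3, Pcdh11x, Pcdh12 and the other Cdhr17 identifier had 0 to 10 counts per library.

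Among the tested genes, most calls were rises. With edgeR's quasi-likelihood test and Benjamini-Hochberg adjustment over all 16840 tested genes (threshold 0.05), 19 of 28 were higher and 3 lower in MP8 than in WT cells, where 30.0% of all tested genes were called higher and 32.2% lower. In Tas cells 11 were higher and 6 lower than in WT cells, beside 26.2% and 25.5% of all tested genes. In Pph cells 17 were higher and 1 lower, beside 30.6% and 25.7%. Restricted to the 20 genes that passed the filter on their WT level, the counts were 12 higher and 3 lower in MP8, 6 and 6 in Tas, and 14 and 1 in Pph. Over all 14834 genes that passed in the same way, 28.9% were higher and 36.0% lower in MP8, 26.3% and 28.4% in Tas, and 30.6% and 28.9% in Pph.

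Rises of 2-fold or more were called for 12 of the 28 in MP8, 9 in Tas and 8 in Pph, where 9.96%, 6.59% and 8.91% of all tested genes rose that far. The median log2 fold change was 0.91 in MP8, 0.26 in Tas and 0.64 in Pph, beside -0.02, -0.01 and 0.04 over all tested genes. On the 20 genes that passed on their WT level, rises of 2-fold or more numbered 5 in MP8, 4 in Tas and 5 in Pph, beside 6.44%, 4.25% and 6.30% of all such genes. The medians of these 20 were 0.56, 0.06 and 0.50, beside -0.05, -0.03 and 0.01. Falls of 2-fold or more were called for Dsg2 in MP8 and Cdh13 in Tas and for 0 genes in Pph by edgeR, beside 4.38%, 3.62% and 2.24% of all tested genes. At an unadjusted p under 0.05, Cdh9 was the single gene lower in Pph, by less than 2-fold, and DESeq2 called no gene of the 28 lower there by 2-fold either. Cdh12, Cdhr1, Pcdh7, Pcdh8, Pcdh9 and Pcdh15 were called higher in all 3 null groups (6 of 28, beside 10.6% of all tested genes). By edgeR 0 were called lower in all 3, also at an unadjusted p under 0.05 (8.66% of all tested genes). The calls of Pcdh8 in Tas and Pph depended on the analysis, as given with its counts. Pcdh7 and Pcdh8, among the 6 genes higher in all 3 null groups, passed the filter only through null libraries. The count of 6 was not restricted to genes passing on their WT level. Cdh15 was called in no group. The 3 comparisons share the WT libraries, so common calls are not independent of each other.

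**Figure D1:**
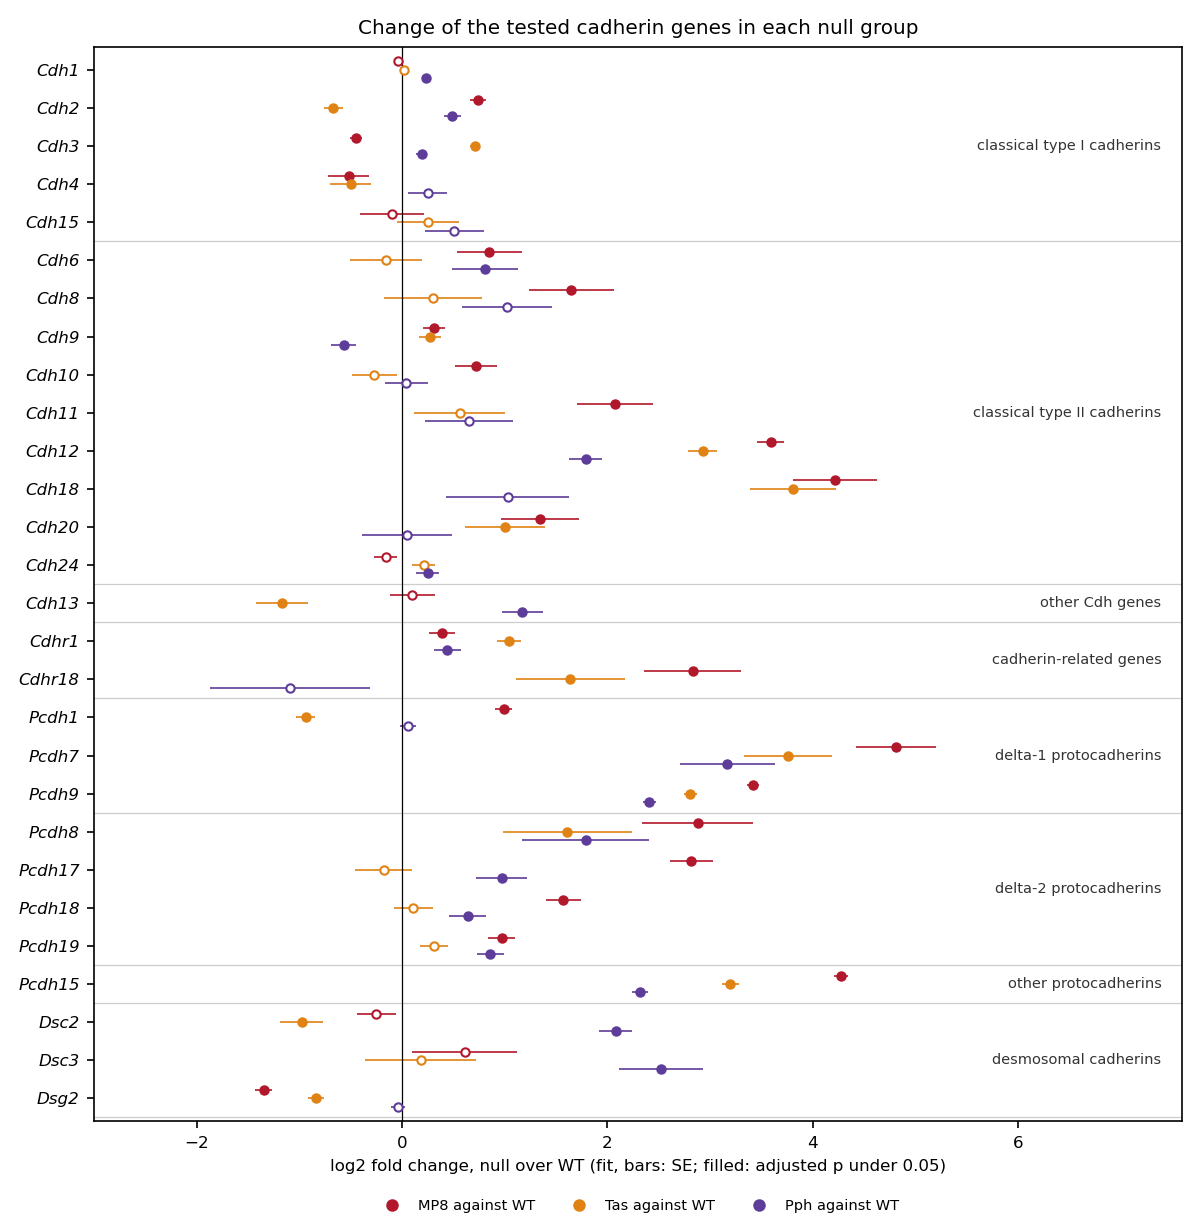
Log2 fold change (null over WT, x axis) of the 28 tested cadherin superfamily genes, grouped by subfamily down the page, with 1 point per null group; bars are the SE of the fit and filled points have an edgeR adjusted p under 0.05. Pcdh7, Pcdh9, Pcdh15 and Cdh12 lie far to the right in all 3 null groups, while Cdh2, Cdh3, Pcdh1 and Cdh13 lie on both sides of 0.

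Pcdh15 rose 19.4-fold in MP8, 9.20-fold in Tas and 5.0-fold in Pph. Its protein pairs with cadherin 23 in the tip link that opens the transduction channel of inner ear hair cells. It stood at 156, 170 and 161 CPM in the MP8 libraries, 74.2, 77.9 and 78.4 CPM in Tas, 44.6, 38.7 and 42.1 CPM in Pph, and 9.69, 6.94 and 8.33 CPM in WT. No 2 groups overlapped, and the order was MP8, Tas, Pph, WT. The log2 fold change against WT was 4.28 ± 0.07 in MP8 (edgeR adjusted p = 2e-23), 3.20 ± 0.08 in Tas (2.63e-20) and 2.32 ± 0.08 in Pph (6.23e-17; ± SE here and below). Between null groups Pcdh15 was higher by 1.08 ± 0.05 in MP8 than in Tas (edgeR adjusted p = 5.09e-14) and by 0.88 ± 0.06 in Tas than in Pph (1.32e-11). Cdh23, the gene for the tip-link partner, was near the limit of detection: it had 13 counts over the MP8 libraries, 25 over Tas, 17 over Pph and 12 over WT, and was not tested.

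Pcdh9, a delta-1 protocadherin of neurons, had the highest CPM of the nonclustered protocadherins in every group; clustered protocadherins were not compared. It stood at 193, 202 and 209 CPM in the MP8 libraries, 133, 131 and 133 CPM in Tas, 106, 92.3 and 104 CPM in Pph, and 18.8, 20.7 and 17.1 CPM in WT. The groups again lay apart in the order MP8, Tas, Pph, WT, with log2 fold changes against WT of 3.42 ± 0.06, 2.81 ± 0.06 and 2.41 ± 0.06 (edgeR adjusted p = 2.06e-25, 3.07e-23 and 1.54e-21). The step between MP8 and Tas was 0.61 ± 0.05 (edgeR adjusted p = 4.33e-11) and that between Tas and Pph 0.40 ± 0.05 (1.55e-07).

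Cdh12, a type II cadherin of the brain, repeated the order at a lower level. Its libraries held 20, 25.8 and 24.7 CPM in MP8, 14.5, 13.6 and 16.4 CPM in Tas, 6.31, 6.55 and 7.36 CPM in Pph, and 1.88, 1.69 and 2.26 CPM in WT. The log2 fold changes against WT were 3.59 ± 0.13, 2.93 ± 0.14 and 1.79 ± 0.16 (edgeR adjusted p = 2.34e-20, 2.53e-17 and 5.76e-11). MP8 exceeded Tas by 0.66 ± 0.09 (edgeR adjusted p = 6.38e-07) and Tas exceeded Pph by 1.14 ± 0.11 (4.52e-10).

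Cdh18, a neuronal type II cadherin that lies next to Cdh12 on chromosome 15 with 1 protein-coding gene between them, rose in MP8 and Tas. The MP8 libraries held 10.8, 10.7 and 12.4 CPM, the Tas libraries 7.14, 9.21 and 9.18 CPM, and the WT libraries 0.643, 0.496 and 0.659 CPM. The log2 fold change was 4.22 ± 0.41 in MP8 (edgeR adjusted p = 8.29e-06) and 3.81 ± 0.42 in Tas (3.38e-05). The Pph libraries were uneven, at 1.14, 2.30 and 0.254 CPM, and overlapped WT (1.03 ± 0.60, edgeR adjusted p = 0.176). Without Pph replicate 3, the lowest library, the difference was 1.52 and passed (edgeR adjusted p = 0.000171).

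Pcdh7, a delta-1 protocadherin of brain and heart, was nearly absent from WT cells, with 0, 5 and 3 counts in the 3 libraries. It had 88, 62 and 68 counts in MP8, 30, 45 and 32 in Tas, and 23, 19 and 27 in Pph. Scaled to depth these were 4.43, 3.41 and 3.36 CPM in MP8, 1.62, 2.21 and 1.55 CPM in Tas, 1.25, 0.95 and 1.37 CPM in Pph, and 0, 0.248 and 0.141 CPM in WT. Every null library lay above every WT library, and a count of 0 in WT replicate 1 allows up to 0.138 CPM (3 counts; counting error only). The fitted log2 fold changes of 4.81 ± 0.39, 3.76 ± 0.43 and 3.17 ± 0.46 (edgeR adjusted p = 4.49e-12, 1.07e-08 and 7.79e-07) rest on 8 WT counts in all.

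**Figure D2:**
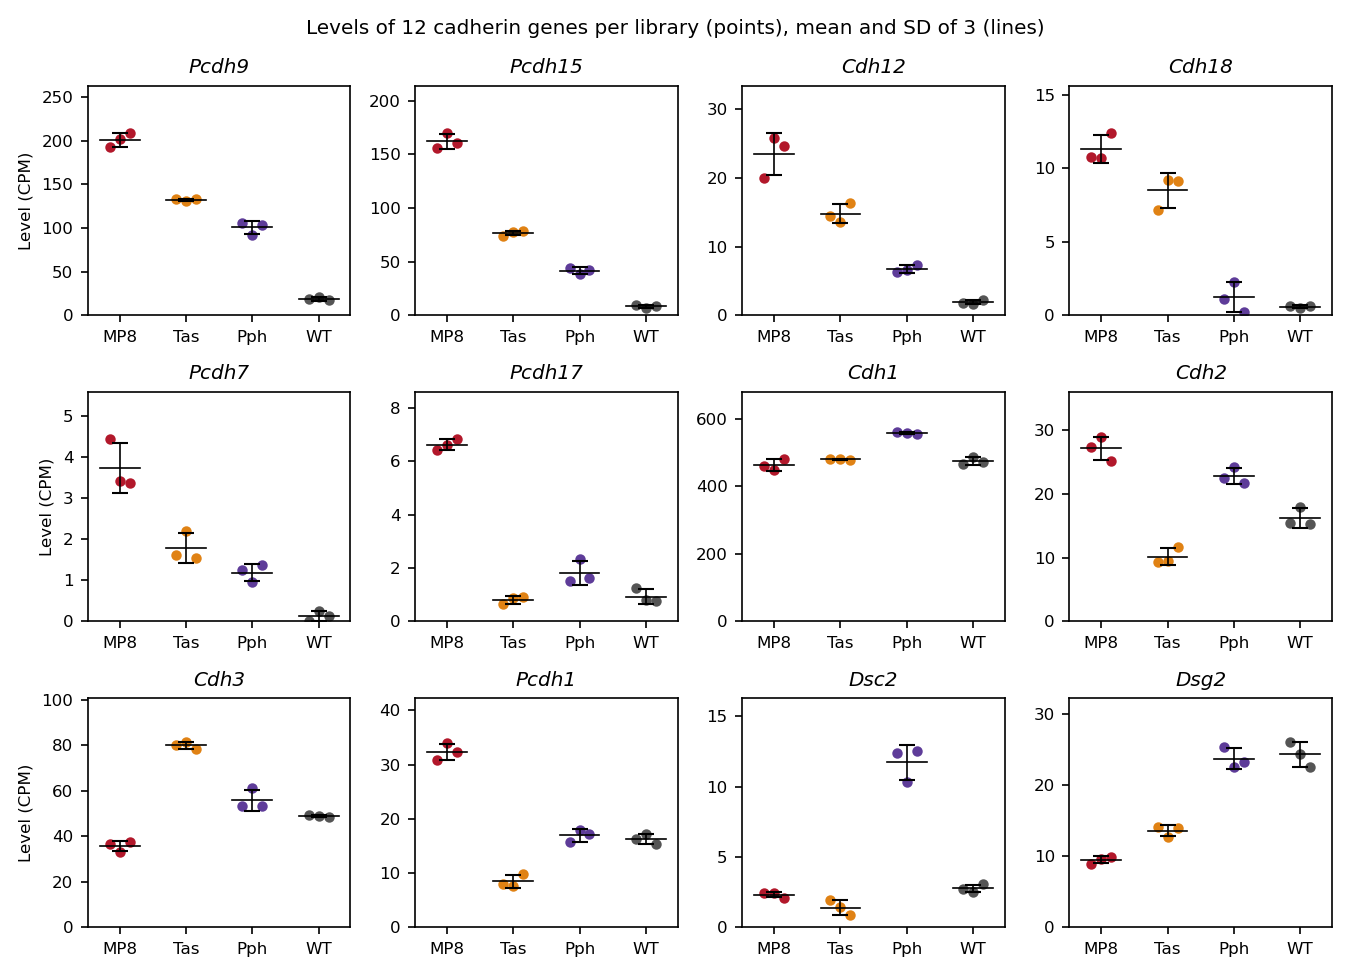
Level of 12 cadherin superfamily genes in CPM (y axis, from 0, a separate scale per gene) in each library (points) of MP8, Tas, Pph and WT cells, with the group mean and SD of 3 libraries as lines. Pcdh9, Pcdh15 and Cdh12 step down from MP8 to WT without overlap, Cdh1 stays within 447 to 560 CPM in every library, and Dsc2 stands out in Pph.

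The annotated promoters of the 4 most abundant of these genes were compared for shared sequence features. The 250 bases before the annotated start are printed from RefSeq (GRCm38.p6, 5′ to 3′ on the gene's strand), with each CG dinucleotide, the site of DNA methylation, in capitals.
Pcdh15 (chr10:73821617-73821866, plus strand): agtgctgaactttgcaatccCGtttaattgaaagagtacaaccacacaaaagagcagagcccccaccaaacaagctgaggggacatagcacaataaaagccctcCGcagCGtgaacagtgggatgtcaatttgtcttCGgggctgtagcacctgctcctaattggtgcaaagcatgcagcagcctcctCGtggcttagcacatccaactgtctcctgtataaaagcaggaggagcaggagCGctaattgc
Pcdh9 (chr14:93890680-93890929, minus strand): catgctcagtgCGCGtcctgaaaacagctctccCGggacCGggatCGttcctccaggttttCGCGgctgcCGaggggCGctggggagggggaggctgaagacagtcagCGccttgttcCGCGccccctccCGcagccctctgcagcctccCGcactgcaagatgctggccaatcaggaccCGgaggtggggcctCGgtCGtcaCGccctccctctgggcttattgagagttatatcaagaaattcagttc
Cdh12 (chr15:21111202-21111451, plus strand): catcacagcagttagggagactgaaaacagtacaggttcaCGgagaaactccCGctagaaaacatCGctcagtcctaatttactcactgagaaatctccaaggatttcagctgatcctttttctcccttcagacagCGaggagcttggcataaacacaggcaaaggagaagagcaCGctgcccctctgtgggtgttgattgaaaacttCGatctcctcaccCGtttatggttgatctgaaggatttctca
Cdh18 (chr15:23036213-23036462, plus strand): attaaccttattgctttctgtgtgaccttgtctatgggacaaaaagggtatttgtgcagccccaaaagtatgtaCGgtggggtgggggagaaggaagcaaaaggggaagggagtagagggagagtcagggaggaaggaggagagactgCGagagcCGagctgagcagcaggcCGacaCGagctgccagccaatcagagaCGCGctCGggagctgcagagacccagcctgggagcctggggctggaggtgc
Pcdh9 held 18 CG dinucleotides, a number reached by 21.6% of 27025 promoters, whereas Cdh18 held 8, Cdh12 7 and Pcdh15 6, near the median of 6 over all promoters. Over the 17 tested genes with an entry the number ran from 2 in Cdh10 to 23 in Pcdh18. The genes called higher in all 3 null groups ran from 6 in Pcdh15 and Cdhr1 to 18 in Pcdh9. The E-box CACCTG, or its reverse complement CAGGTG, the core of sites bound by ZEB and SNAIL factors, occurred in 2 of these 17, Pcdh15 and Cdhr1, and in 17.1% of all promoters. The TATA box letters TATAAA, or on the other strand TTTATA, occurred in 2, Pcdh15 and Pcdh8, and in 13.0% of all promoters. The counts do not show which start site the transcripts used.

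Estimated counts and TPM (a level per transcript length) together give the effective length the authors' quantification assigned to a gene, since TPM divides counts by that length. Scaled on 482 genes with a single annotated transcript, 85.9% of which came within 20% of the listed length, the assigned length was short for several of the genes that rose. Pcdh15 was assigned 708 bases in MP8, 586 in Tas, 654 in Pph and 602 in WT (medians of 3 libraries), against a listed length of 7881 bases. Cdh12 was assigned 647, 644, 651 and 650 bases in the same groups, against 5636 listed. The length assigned to both genes was thus as short in WT cells as in null cells. For Pcdh15 it ran from 623 to 738 bases over the MP8 libraries, 515 to 594 over Tas, 630 to 794 over Pph and 454 to 648 over WT, so that MP8 and Tas lay apart while each overlapped WT.

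Cdh18 was assigned 260 bases in MP8 and 209 in Tas, of 2744 listed, and Pcdh7 1831 in MP8 and 1664 in Tas, of 8785. These 4 of the 20 members with at least 30 counts in each MP8 library fell under 25% of the listed length, beside 1.69% of all genes measured in that way. The count was 4 of 17 in Tas (1.59%), and 2 of 17 in both Pph (1.35%) and WT (1.17%), where Cdh18 and Pcdh7 had too few counts to enter. Pcdh9 differed from them, with 7187, 7238, 7145 and 7203 bases in MP8, Tas, Pph and WT, 192% to 195% of its listed 3714, above rather than below it. Cdh1, Cdh3, Cdh10, Cdhr1, Dsg2 and Dsc2 stayed between 96.6% and 104% of the listed length in each group where they were measured (medians).

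**Figure D3:**
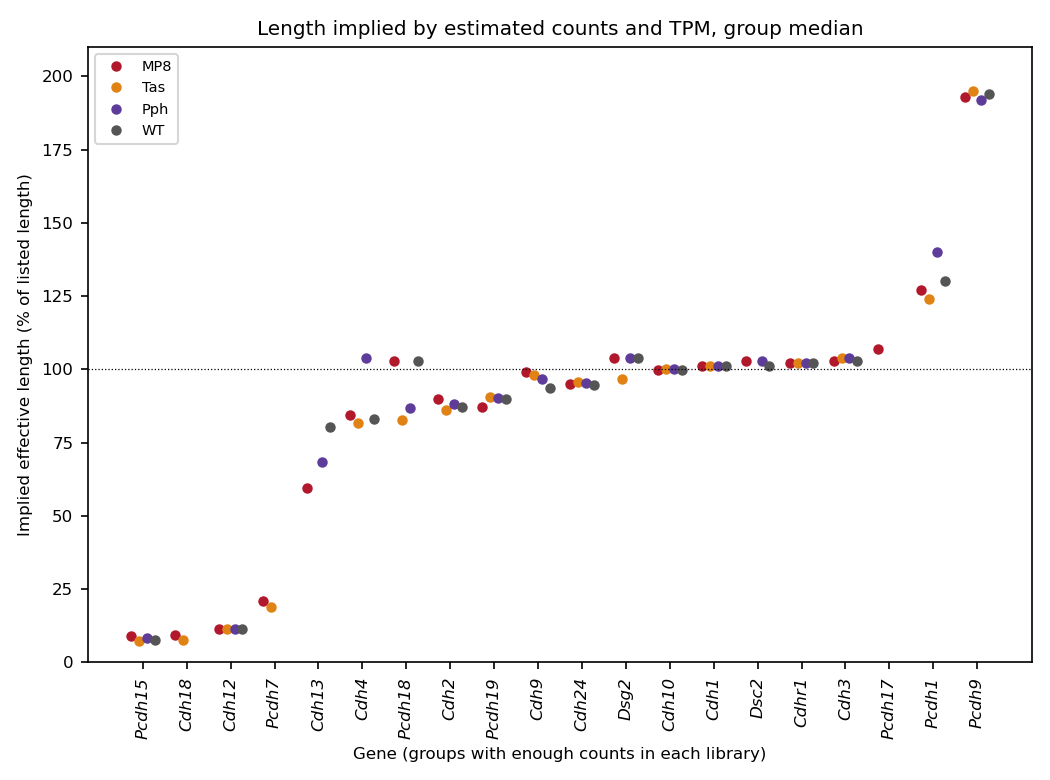
Effective length implied by estimated counts and TPM, as a percentage of the listed length (y axis), for each gene and group with at least 30 counts in each library; points are medians of 3 libraries. Pcdh15, Cdh18, Cdh12 and Pcdh7 lie under 25% and Pcdh9 between 192% and 195%, in every group shown.

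The short lengths raise TPM, so levels per length and counts rank the genes differently. In TPM, Pcdh15 was first in MP8 (358 ± 50.1) and Tas (199 ± 20.8) and second in Pph (95.7 ± 6.09) and WT (20.8 ± 1.44; SD, n = 3 each). Cdh1 was second in MP8 (157 ± 5.05 TPM) and Tas (156 ± 0.554 TPM) and first in Pph (197 ± 3.62 TPM) and WT (151 ± 6.01 TPM). Each of these ranks was clear of the next beyond the range of the libraries. Cdh1 made up 21.3% ± 1.7 of the summed TPM of all 52 genes in MP8, 29.5% ± 1.76 in Tas, 49.4% ± 1.05 in Pph and 66.5% ± 0.817 in WT. Pcdh15 made up 48.3% ± 3.37, 37.4% ± 1.73, 24.0% ± 1.35 and 9.17% ± 0.33. In WT the order after Pcdh15 was Cdh3 (15.3 TPM), then Dsg2 (5.76) and Cdh2 (5.47), then Pcdh1 (4.58), Cdh12 (4.19), Pcdh9 (3.73), Cdh24 (3.31) and Cdh9 (2.88); Dsg2 overlapped Cdh2, and each gene from Pcdh1 on overlapped the next. In CPM, Cdh1 kept the highest level of all 52 genes in every group.

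The 6 genes called higher in all 3 null groups had a median span of 646 kb and the other 22 tested genes 103 kb, with exceptions in both directions. By the GENCODE M21 annotation (GRCm38), Pcdh15 spans 1550 kb, Cdh12 1140 kb, Cdh13 1040 kb, Cdh18 925 kb, Pcdh9 877 kb and Pcdh7 415 kb. The 28 tested genes had a median span of 117 kb, against 21.0 kb over all tested genes with a span. Across the 28 genes Spearman's rho between span and log2 fold change was 0.42 (MP8), 0.28 (Tas) and 0.29 (Pph), and across 16484 genes 0.08, 0.02 and 0.18; genes are not independent replicates and the 3 values share the WT libraries. Of all tested genes, 177 spanned at least 500 kb, a limit set after the values were seen, and their median log2 fold changes in MP8, Tas and Pph cells were 1.21, 0.64 and 0.82. The 5 cadherin genes among them had medians of 3.59, 2.93 and 1.79. Cdh18 among these 5, and Pcdh7 and Pcdh8 among the 6 genes above, passed the filter only through null libraries. A difference was thus built into the selection of these genes, and the span and rho values were not restricted to genes passing on their WT level. Cdh13 was not called in MP8 (0.10 ± 0.22), was lower in Tas on the scale of counts (-1.17 ± 0.25; 0.36 on log2(TPM + 0.1) and 0.19 on log2(TPM + 1)) and higher in Pph (1.17 ± 0.20), while Pcdh8, which spans 4.54 kb, was called higher in all 3 groups on fewer counts.

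**Figure D4:**
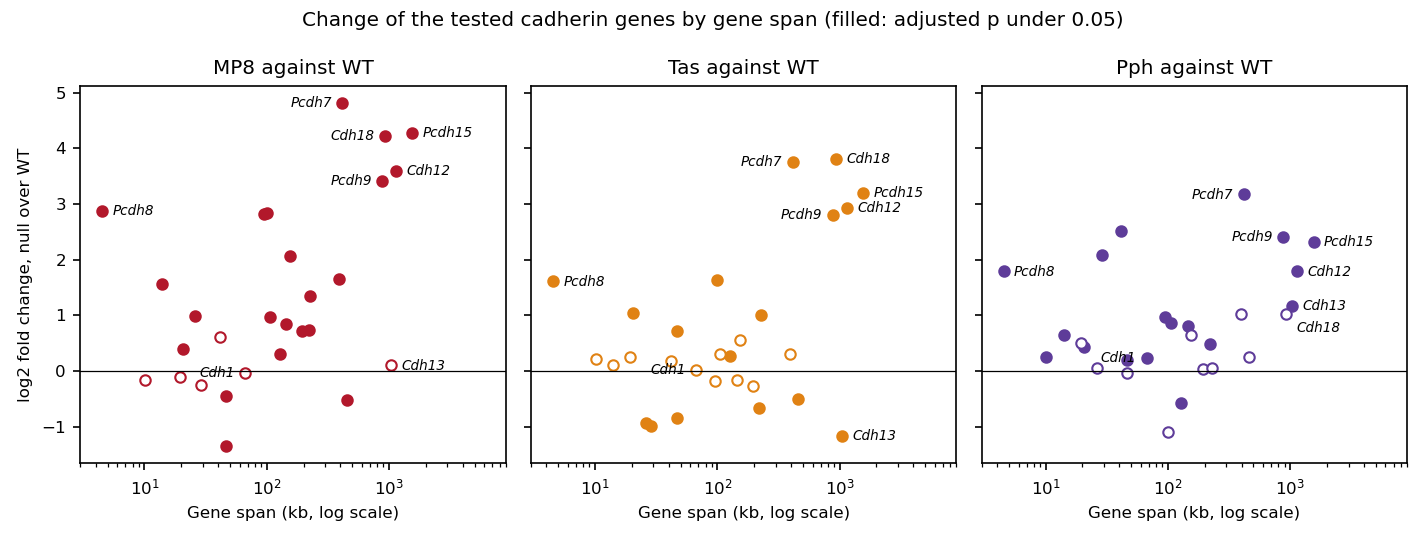
Log2 fold change (null over WT, y axis) against gene span in kb (x axis, log scale) for the 28 tested cadherin superfamily genes in MP8, Tas and Pph cells; filled points have an edgeR adjusted p under 0.05. Pcdh15, Cdh12 and Pcdh9 lie at the upper right in each panel, and Cdh13, which spans 1040 kb, lies near or below 0 in MP8 and Tas.

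The 5 classical type I cadherins had no common direction: 1 was called higher and 2 lower in MP8, 1 and 2 in Tas, and 3 and 0 in Pph. Over all tested genes, 30.0% were higher and 32.2% lower in MP8, 26.2% and 25.5% in Tas, and 30.6% and 25.7% in Pph. Cdh1 stood at 460, 447 and 481 CPM in MP8, 481, 481 and 478 CPM in Tas, 560, 558 and 556 CPM in Pph, and 466, 487 and 471 CPM in WT. The Pph libraries alone lay wholly apart from WT, and the gene rose there by 0.23 ± 0.03 on the log2 scale (edgeR adjusted p = 1.19e-07); MP8 (-0.04 ± 0.03) and Tas (0.02 ± 0.03) were not called, though the MP8 value passed under upper-quartile scaling (-0.08, edgeR adjusted p = 0.0334).

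Cdh2, N-cadherin, is carried by mesenchymal and neural cells and replaces E-cadherin in epithelial-mesenchymal transition. It stood at 27.3, 28.9 and 25.2 CPM in MP8, 9.31, 9.51 and 11.7 CPM in Tas, 22.5, 24.2 and 21.7 CPM in Pph, and 15.4, 18 and 15.3 CPM in WT. The MP8 and Pph libraries lay above and the Tas libraries below WT, with log2 fold changes of 0.74 ± 0.08, 0.49 ± 0.08 and -0.67 ± 0.09 (edgeR adjusted p = 5.15e-09, 1.18e-05 and 4.85e-07). MP8 exceeded Tas by 1.41 ± 0.09 (edgeR adjusted p = 2.35e-14).

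Cdh3, P-cadherin of placenta and basal epithelium, moved opposite to Cdh2 in MP8 and Tas. It stood at 36.6, 33.1 and 37.6 CPM in MP8, 79.9, 81.5 and 78.5 CPM in Tas, 53.1, 61.1 and 53.1 CPM in Pph, and 49.3, 49.1 and 48.6 CPM in WT. MP8 lay below WT (-0.45 ± 0.06, edgeR adjusted p = 3.08e-08) and Tas above it (0.71 ± 0.05, edgeR adjusted p = 5.53e-13), and MP8 was lower than Tas by -1.16 ± 0.05 (edgeR adjusted p = 1.32e-17). The rise of 0.19 ± 0.05 in Pph (edgeR adjusted p = 0.00307) rested on Pph replicate 2, without which it was 0.12 (edgeR adjusted p = 0.056). Cdh3 and Cdh1 are neighbours on chromosome 8, where the median log2 fold change of 598 genes in Tas was 0.34, with 72.4% above 0, against -0.01 over all genes of that level; the part of this shift in the rise of Cdh3 was not tested, and Cdh1 beside it stood at 0.02.

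Cdh4, R-cadherin of retina and brain, was lower in MP8 and Tas by small and unsteady amounts. It stood at 2.06, 2.31 and 3.31 CPM in MP8, 3.36, 2.30 and 2.19 CPM in Tas, 4.40, 5.05 and 3.70 CPM in Pph, and 4.41, 3.62 and 3.01 CPM in WT, with overlap of every null group with WT. The log2 fold changes were -0.52 ± 0.20 in MP8 (edgeR adjusted p = 0.0286) and -0.50 ± 0.20 in Tas (0.0398). The MP8 call was lost without MP8 replicate 1 (-0.38), MP8 replicate 2 (-0.45), WT replicate 1 (-0.36) or WT replicate 2 (-0.53), and the Tas call without Tas replicate 2 (-0.42), Tas replicate 3 (-0.39), WT replicate 1 (-0.34) or WT replicate 2 (-0.51). Both calls were also lost with DESeq2 (-0.51 each), on log2(TPM + 0.1) (-0.33 each) and on log2(TPM + 1) (-0.17 in MP8 and -0.16 in Tas), and the Tas call with the replicate block (-0.50). Cdh15, M-cadherin of muscle, stood at 1.21, 0.66 and 0.987 CPM in MP8, 1.03 to 1.37 CPM in Tas, 1.47, 1.45 and 1.47 CPM in Pph, and 1.47, 0.744 and 0.847 CPM in WT, and each null group overlapped WT. It passed in Pph without WT replicate 1 (0.88, edgeR adjusted p = 0.0254, against 0.51 with it).

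Most type II cadherins were higher in MP8 than in WT cells. With Cdh12 and Cdh18, 8 of 9 tested members were called higher and none lower in MP8, 4 and 0 in Tas, and 3 and 1 in Pph. Since 4 of the 9 (Cdh8, Cdh11, Cdh18 and Cdh20) passed the filter only through null libraries, the count on the other 5 was 4 higher and 0 lower in MP8, 2 and 0 in Tas, and 3 and 1 in Pph, beside 28.9%, 26.3% and 30.6% of all genes passing on their WT level called higher. Neuroectoderm markers moved in MP8 as well: 5 of 7 tested were higher (Dcx by 2.14, Sox1 by 2.03, Pax6 by 1.49, Nes by 0.71 and Neurod1 by 0.64 on the log2 scale) and Tubb3 was lower (-0.41). Their summed level was 245 to 266 CPM in MP8, 223 to 238 CPM in Tas, 209 to 238 CPM in Pph and 225 to 235 CPM in WT libraries, with 2 higher and 0 lower in Tas and 2 and 3 in Pph, and none was at 0. Their part in the rises of neural cadherins and protocadherins was not tested.

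Cdh10, a synaptic cadherin, stood at 3.57, 3.52 and 3.50 CPM in MP8, 1.84, 1.47 and 1.99 CPM in Tas, 2.34, 1.75 and 2.49 CPM in Pph, and 2.57, 2.18 and 1.65 CPM in WT; MP8 alone lay above WT (0.72 ± 0.20, edgeR adjusted p = 0.00214). Cdh11, known from osteoblasts and mesenchyme, stood at 1.51, 1.10 and 1.43 CPM in MP8, 0.433, 0.392 and 0.583 CPM in Tas, 0.544, 0.30 and 0.66 CPM in Pph, and 0.276, 0.397 and 0.282 CPM in WT, and was called higher in MP8 (2.07 ± 0.37, edgeR adjusted p = 1.88e-05). Both genes were also higher in MP8 than in Tas, by 1.00 ± 0.20 and 1.51 ± 0.35 (edgeR adjusted p = 0.000122 and 0.000541).

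Cdh8, another neural type II cadherin that lies beside Cdh11 on chromosome 8, stood at 0.755, 1.54 and 1.33 CPM in MP8, 0.162, 0.441 and 0.777 CPM in Tas, 0.761, 0.85 and 0.71 CPM in Pph, and 0.459, 0.446 and 0.235 CPM in WT. It was called higher in MP8 (1.65 ± 0.41, edgeR adjusted p = 0.00101). The Pph libraries also lay above WT without a call (1.02 ± 0.44, edgeR adjusted p = 0.0511), and passed without Tas replicate 1 or Tas replicate 3 (both 1.02, edgeR adjusted p = 0.0392 and 0.0433), with the 2 groups alone (0.99) and with limma on log2(TPM + 0.1) (0.87) and log2(TPM + 1) (0.26). Cdh6, K-cadherin of kidney, stood at 1.31, 1.59 and 0.889 CPM in MP8, 0.541, 0.686 and 0.631 CPM in Tas, 1.52, 1.15 and 1.01 CPM in Pph, and 0.643, 0.843 and 0.612 CPM in WT. Its calls in MP8 (0.85 ± 0.32, edgeR adjusted p = 0.0226) and Pph (0.81 ± 0.32, edgeR adjusted p = 0.0325) were weak. The first was lost without MP8 replicate 1 (0.82), MP8 replicate 2 (0.65), WT replicate 1 (0.79) or WT replicate 3 (0.76), with DESeq2 (0.87), on log2(TPM + 0.1) (0.56) and on log2(TPM + 1) (0.13), and the second without Pph replicate 1 (0.63), WT replicate 1 (0.76) or WT replicate 3 (0.72), with no filter (0.81), with DESeq2 (0.79) and on log2(TPM + 1) (0.14).

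Cdh9, a synaptic cadherin between Cdh6 and Cdh10 in the chromosome 15 row that ends with Cdh12 and Cdh18, had the only fall in Pph. It stood at 8.86, 8.63 and 7.95 CPM in MP8, 7.52, 8.67 and 8.64 CPM in Tas, 4.62, 4.70 and 4.52 CPM in Pph, and 7.21, 5.85 and 7.48 CPM in WT. The Pph libraries lay below all others (-0.57 ± 0.12, edgeR adjusted p = 0.000256). The rises in MP8 (0.31 ± 0.11, edgeR adjusted p = 0.0212) and Tas (0.27 ± 0.11, edgeR adjusted p = 0.0448) were lost without WT replicate 2 (0.21 and 0.18). The MP8 rise was also lost without MP8 replicate 1 (0.27) or MP8 replicate 2 (0.29) and with DESeq2 (0.32). The Tas rise was lost under 11 of 21 alternatives, among them the loss of Tas replicate 2 (0.24), Tas replicate 3 (0.24) or MP8 replicate 2 (0.27), and also upper-quartile scaling (0.23), no filter (0.28), the replicate block, DESeq2, log2(TPM + 0.1) and the 2 groups alone (0.27 each), and log2(TPM + 1) (0.21).

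Cdh20, at 6 to 19 counts per library in all groups, was called higher in MP8 (0.891 ± 0.0423 CPM, against 0.347 ± 0.0669 CPM in WT; 1.34 ± 0.38, edgeR adjusted p = 0.00297). Its call in Tas (1.00 ± 0.39, edgeR adjusted p = 0.0327) was lost without Tas replicate 2 (0.97), Tas replicate 3 (0.81), WT replicate 1 (0.95) or WT replicate 2 (0.91), and with no filter and DESeq2 (1.01 each). Cdh24 stood at 6.89, 6.6 and 7.21 CPM in MP8, 9.42, 8.82 and 8.64 CPM in Tas, 8.75, 10.2 and 8.68 CPM in Pph, and 8.64, 7.49 and 7.06 CPM in WT. Its call in Pph (0.25 ± 0.11, edgeR adjusted p = 0.0463) was lost under 12 of 21 alternatives, 6 of them the loss of a library (MP8 replicate 1, Tas replicate 1 or Tas replicate 2 with 0.25 each, Pph replicate 2 with 0.17, WT replicate 2 with 0.23, WT replicate 3 with 0.19). In Tas it passed without WT replicate 1 (0.30, edgeR adjusted p = 0.0353, against 0.21 with it).

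Cdh13, T-cadherin, lacks the tail that binds catenins, is held in the membrane by a lipid anchor and binds adiponectin. It stood at 2.11, 1.70 and 1.93 CPM in MP8, 0.974, 0.833 and 0.583 CPM in Tas, 3.59, 4.15 and 4.31 CPM in Pph, and 1.79, 1.54 and 2.02 CPM in WT. The Pph libraries lay above WT (1.17 ± 0.20, edgeR adjusted p = 1e-05) and the Tas libraries below it (-1.17 ± 0.25, edgeR adjusted p = 0.000248), a difference of -2.34 ± 0.23 between Tas and Pph (edgeR adjusted p = 4.06e-10). The fall in Tas is on the scale of counts: on log2(TPM + 0.1) the difference between Tas and WT was 0.36 (limma adjusted p = 0.425).

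Of the cadherin-related genes, Cdhr1, known from the outer segments of photoreceptors, was higher in all 3 null groups and most in Tas. It stood at 6.19, 6.10 and 6.37 CPM in MP8, 8.77, 10.5 and 9.95 CPM in Tas, 7.12, 6.70 and 5.53 CPM in Pph, and 4.41, 5.21 and 4.66 CPM in WT, with no overlap with WT. The log2 fold changes were 0.39 ± 0.13, 1.04 ± 0.12 and 0.44 ± 0.13 (edgeR adjusted p = 0.00952, 1.69e-08 and 0.00412), and MP8 was lower than Tas by -0.65 ± 0.12 (edgeR adjusted p = 2.3e-05). Cdhr18 stood at 1.01, 1.32 and 1.83 CPM in MP8, 0.595, 0.784 and 0.437 CPM in Tas, 0.0544, 0.20 and 0 CPM in Pph, and 0.276, 0.198 and 0.0941 CPM in WT. It was called higher in MP8 (2.83 ± 0.47, edgeR adjusted p = 5.48e-06) and in Tas (1.64 ± 0.53, edgeR adjusted p = 0.0103), where the call was lost without Tas replicate 2 (1.41) or WT replicate 3 (1.32). In Pph it had 1, 4 and 0 counts and was not called (-1.09 ± 0.78, edgeR adjusted p = 0.241), but passed without Pph replicate 2 (-2.59, edgeR adjusted p = 0.0446), a fit that rests on 1 and 0 counts.

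The delta-2 protocadherins, which recruit actin regulators through their tails, rose in MP8 and Pph. All 4 tested members were called higher in MP8 and in Pph, and 1 in Tas. Without Pcdh8, which passed the filter only through null libraries, the counts were 3 of 3 in MP8, 0 in Tas and 3 of 3 in Pph. In MP8, Tas and Pph, 30.0%, 26.2% and 30.6% of all tested genes were called higher. Among all genes passing on their WT level the shares were 28.9%, 26.3% and 30.6%. Pcdh17, known from the assembly of synapses in the striatum, stood at 6.44, 6.6 and 6.86 CPM in MP8, 0.649, 0.882 and 0.923 CPM in Tas, 1.52, 2.35 and 1.62 CPM in Pph, and 1.24, 0.793 and 0.753 CPM in WT. The MP8 libraries lay far above all others, the Pph libraries above WT, and Tas overlapped WT. The log2 fold changes against WT were 2.82 ± 0.21 in MP8, -0.18 ± 0.28 in Tas and 0.97 ± 0.25 in Pph (edgeR adjusted p = 1.02e-12, 0.625 and 0.00128), and MP8 exceeded Tas by 3.0 ± 0.22 (edgeR adjusted p = 6.78e-13). On log2(TPM + 1) the Pph call was lost (0.16).

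Pcdh18 stood at 5.33, 6.54 and 5.58 CPM in MP8, 2.06, 2.25 and 1.99 CPM in Tas, 2.50, 3.35 and 3.25 CPM in Pph, and 1.75, 2.03 and 2.07 CPM in WT. It was higher in MP8 by 1.57 ± 0.17 and in Pph by 0.64 ± 0.18 (edgeR adjusted p = 2.73e-09 and 0.00377), and not called in Tas (0.11 ± 0.19). Pcdh19, an X-linked gene whose human counterpart is mutated in a female-limited epilepsy, stood at 8.30, 8.30 and 8.79 CPM in MP8, 4.49, 5.93 and 5.58 CPM in Tas, 7.01, 7.65 and 8.83 CPM in Pph, and 4.50, 4.61 and 3.86 CPM in WT. It was higher in MP8 by 0.97 ± 0.13 and in Pph by 0.86 ± 0.13 (edgeR adjusted p = 1.31e-07 and 1.57e-06). Both calls were absent on log2(TPM + 0.1), at 0.69 and 0.63 (limma adjusted p = 0.181 and 0.233). In Tas the value was 0.31 ± 0.14 (edgeR adjusted p = 0.0592), and it passed without Tas replicate 1 (0.41, edgeR adjusted p = 0.0199).

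Pcdh8, paraxial protocadherin, is known from somites and from the uptake of N-cadherin at active synapses. It had 12, 15 and 16 counts in MP8, 5, 10 and 3 in Tas, 7, 7 and 6 in Pph, and 2, 2 and 2 in WT. Its rise in MP8 (2.88 ± 0.54, edgeR adjusted p = 3.2e-05) was firmer than those in Tas (1.61 ± 0.63, edgeR adjusted p = 0.033) and Pph (1.79 ± 0.62, edgeR adjusted p = 0.0143). The Tas call was lost without Tas replicate 1 (1.68), Tas replicate 2 (1.07), WT replicate 1 (1.59), WT replicate 2 (1.64) or WT replicate 3 (1.60), with no filter on low counts (1.61), with DESeq2 (1.67), on log2(TPM + 0.1) (0.21) and on log2(TPM + 1) (0.03). The Pph call was lost with DESeq2 (1.84, DESeq2 adjusted p = 0.0518), on log2(TPM + 0.1) (0.42) and on log2(TPM + 1) (0.07).

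Pcdh1, the delta-1 member known from airway epithelium, moved in opposite directions in MP8 and Tas. It stood at 30.9, 33.9 and 32.3 CPM in MP8, 8.01, 7.55 and 9.91 CPM in Tas, 15.7, 18 and 17.3 CPM in Pph, and 16.3, 17.3 and 15.4 CPM in WT. Pph overlapped WT (0.06 ± 0.08), MP8 lay above it (0.99 ± 0.08, edgeR adjusted p = 3.58e-12) and Tas below it (-0.94 ± 0.09, edgeR adjusted p = 7.54e-10), so that MP8 exceeded Tas by 1.93 ± 0.09 (edgeR adjusted p = 8.81e-18).

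Opposite calls in different null groups were made for 6 of the 28 genes (Cdh2, Cdh3, Cdh9, Cdh13, Dsc2 and Pcdh1), beside 16.5% of all tested genes. Tested directly, MP8 was higher than Tas for 17 genes and lower for 4, beside 27.7% and 28.4% of all tested genes. MP8 was higher than Pph for 15 and lower for 8 (27.4% and 31.4%), and Tas was higher than Pph for 9 and lower for 12 (28.5% and 29.3%). Cdh8, Cdh11, Cdhr18, Pcdh7 and Pcdh8 among the 17 passed the filter only through null libraries. So did Cdh11, Cdh18, Cdh20, Cdhr18, Pcdh7 and Pcdh8 among the 15, Cdh18, Cdh20 and Cdhr18 among the 9, and Dsc3 among the 8 and the 12. A difference was built into the selection of these genes. The counts were not restricted to genes passing on their WT level.

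The desmosomal cadherins lie in a row next to Cdh2 on chromosome 18 and split by genotype. Dsg2, the desmoglein of simple epithelia and ES cells, stood at 8.96, 9.62 and 9.92 CPM in MP8, 14.1, 12.7 and 14.0 CPM in Tas, 25.4, 22.5 and 23.2 CPM in Pph, and 26.0, 24.3 and 22.6 CPM in WT. The MP8 and Tas libraries lay below WT (-1.35 ± 0.08 and -0.84 ± 0.08, edgeR adjusted p = 7.98e-15 and 1.91e-10), and Pph overlapped it (-0.04 ± 0.07).

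Dsc2, its desmocollin partner in simple epithelia, stood at 2.42, 2.47 and 2.12 CPM in MP8, 1.95, 1.42 and 0.874 CPM in Tas, 12.4, 10.3 and 12.5 CPM in Pph, and 2.71, 2.53 and 3.06 CPM in WT. The Pph libraries lay far above all others (2.08 ± 0.16, edgeR adjusted p = 1.92e-12) and the Tas libraries below WT (-0.98 ± 0.21, edgeR adjusted p = 0.000267). Dsc3, a desmocollin of stratified epithelia, had 19, 34 and 23 counts in Pph, against 4, 6 and 4 in WT. Its levels were 0.302, 0.33 and 0.395 CPM in MP8, 0.379, 0.196 and 0.194 CPM in Tas, 1.03, 1.70 and 1.17 CPM in Pph, and 0.184, 0.297 and 0.188 CPM in WT, and it was called higher in Pph (2.52 ± 0.41, edgeR adjusted p = 4.83e-06). Dsc1, Dsg1b, Dsg3 and Dsg4 stayed at 0 to 7 counts per library.

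The desmosomal plaque, the proteins that link these cadherins to keratin, was higher in Pph for 7 of 8 tested genes and lower for none; edgeR called 2 higher and 5 lower in MP8, and 2 and 3 in Tas, where 30.0% and 32.2% of all tested genes were called higher and lower in MP8, 26.2% and 25.5% in Tas, and 30.6% and 25.7% in Pph. Its median log2 fold change was -0.24 in MP8, -0.09 in Tas and 0.63 in Pph, beside -0.02, -0.01 and 0.04 over all tested genes. Dsp, desmoplakin, stood at 76.6 ± 2.47 CPM in Pph cells, against 13.0 ± 0.706 CPM in WT cells (2.56 ± 0.07, edgeR adjusted p = 1.56e-23; SD, n = 3 each). Pkp3, a plakophilin, was higher in Pph by 0.58 ± 0.11 and lower in MP8 by -1.38 ± 0.13 and in Tas by -0.66 ± 0.12 (edgeR adjusted p = 4.06e-05, 2.47e-10 and 3.16e-05). Perp, a desmosomal p53 target, was higher in MP8 (1.01 ± 0.06), Tas (0.70 ± 0.06) and Pph (1.34 ± 0.06), and Ppl, periplakin, in Pph (0.94 ± 0.11). Trophectoderm markers moved with these genes: 7 of 9 tested were higher in Pph and none lower, with Krt8, a keratin of simple epithelia, at 440 CPM in Pph, against 47.6 CPM in WT, and Hand1 at 34.7 CPM, against 3.12 CPM. The fibroblast markers were higher in Pph for 6 of 7. Of 7 tested primitive endoderm markers, 4 were higher in Pph and 0 lower, with a sum of 295 to 300 CPM in Pph libraries, against 148 to 175 CPM in WT libraries, and Col4a1, a basement membrane collagen, at 142 CPM in Pph, against 34.6 CPM in WT. The sum of the primitive endoderm markers was 166 to 173 CPM in MP8 and 170 to 182 CPM in Tas libraries. In MP8 cells 5 primitive endoderm markers were higher and 1 lower, with 6 and 1 trophectoderm and 3 and 0 fibroblast markers. In Tas cells the counts were 2 and 0, 0 and 4, and 0 and 3. Gata4 and Gata6 were higher in MP8 (1.08 and 1.4) and not called in Pph. The WT means of Col3a1, Pdgfrb, Twist2, Cdx2 and Gata6 were 0.479, 0.476, 0.208, 0.254 and 0.368 CPM, under the filter level of 0.504 CPM. These markers passed through null libraries, so a difference was built into their selection. The marker counts were not restricted to genes passing on their WT level. Lama1 (144 CPM, against 121 CPM in WT) and Col4a1 made up most of the primitive endoderm sum in Pph. None of the 3 lists had a marker at 0 in Pph, and their part in the desmosomal rise was not tested.

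Among 19 tested catenins and adherens junction partners, 6 were higher and 10 lower in MP8, 7 and 6 in Tas, and 11 and 2 in Pph, with medians of -0.13, 0.02 and 0.24. Beside the shares of all tested genes just given, the higher counts in MP8 and Tas and the lower count in Tas lay near the background. Ctnnd2, delta-catenin, a neuronal protein that binds the membrane-proximal tail of cadherins, was called higher in MP8, Tas and Pph. It stood at 89.5 ± 0.665 CPM in MP8, 61.8 ± 3.03 in Tas, 30.2 ± 3.9 in Pph and 5.75 ± 1.41 in WT (SD, n = 3 each), with log2 fold changes of 3.96 ± 0.12, 3.43 ± 0.12 and 2.39 ± 0.13 (edgeR adjusted p = 4.4e-12, 4.57e-11 and 5.31e-09). Vcl, vinculin, which joins junctions under tension to actin, was higher in MP8 (1.25 ± 0.04) and Pph (0.66 ± 0.04) and slightly lower in Tas (-0.13 ± 0.04, edgeR adjusted p = 0.0142). Ctnnal1, an alpha-catenin relative, was lower in MP8, Tas and Pph (-0.97 ± 0.05, -0.96 ± 0.05 and -0.50 ± 0.04). Nectin4, an adhesion receptor, was lower in MP8 (-1.10 ± 0.22) and higher in Pph (0.53 ± 0.18, edgeR adjusted p = 0.0144).

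Of 16 tested regulators of epithelial-mesenchymal transition, 6 were higher and 6 lower in MP8, 4 and 7 in Tas, and 10 and 4 in Pph. Their medians of 0.01, -0.14 and 0.29 stood beside -0.02, -0.01 and 0.04 over all tested genes. The shares called were near those of all tested genes for higher genes in MP8 (30.0%) and Tas (26.2%) and for lower genes in MP8 (32.2%) and Pph (25.7%). The 7 regulators lower in Tas and the 10 higher in Pph stood beside 25.5% and 30.6% of all tested genes. Without 1 library at a time, the regulators higher in Pph numbered 8 to 9 in place of 10, and with the replicate block 9. Zeb1, known to repress Cdh1, was the one gene of the 4 named here that was higher in all 3 null groups. Zeb1 stood at 62.9 ± 3.53 CPM in MP8, 43.9 ± 2.43 in Tas, 31.9 ± 1.54 in Pph and 12.1 ± 1.39 in WT (SD, n = 3 each), with log2 fold changes of 2.38 ± 0.07, 1.87 ± 0.07 and 1.41 ± 0.08 (edgeR adjusted p = 7.43e-23, 1.56e-19 and 5.6e-16). Zeb2 was higher in MP8 (1.81 ± 0.17) and Pph (0.97 ± 0.19) and lower in Tas (-0.99 ± 0.23). Snai2 was higher in MP8 (1.90 ± 0.27) and Twist2 in Pph (2.0 ± 0.50). The mean of Twist2 reached the filter level of 0.504 CPM only in Pph, at 0.845 CPM, against 0.208 CPM in WT. Twist2 thus passed the filter through Pph, and a difference was built into its selection.

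Proteases that shed or process cadherins were called higher in Pph for 8 of 9 tested genes and lower for 0, higher for 6 and lower for 1 in MP8, and higher for 4 and lower for 2 in Tas, with medians of 0.38, 0.29 and 0.10 in Pph, MP8 and Tas, beside 0.04, -0.02 and -0.01 over all tested genes. The shares of all tested genes called higher were 30.6%, 30.0% and 26.2% in the same order. Mmp9, a gelatinase, stood at 7.93 ± 0.724 CPM in Pph, against 1.88 ± 0.344 CPM in WT (2.07 ± 0.17, edgeR adjusted p = 8.48e-12; SD, n = 3 each). Adam9 was higher in MP8, Tas and Pph (0.38 ± 0.06, 0.65 ± 0.06 and 0.91 ± 0.06). Furin, which cuts the propeptide off E-cadherin, was lower in MP8 (-0.30 ± 0.08) and Tas (-0.27 ± 0.08) and higher in Pph (0.84 ± 0.07). Mmp14, a membrane-bound matrix metalloprotease, was higher in MP8, Tas and Pph (0.25 ± 0.06, 0.30 ± 0.06 and 0.75 ± 0.06).

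Of 12 cadherin relatives outside the naming rule, 3 were higher and 4 lower in MP8, 2 and 4 in Tas, and 4 and 1 in Pph, where 30.0% and 32.2% of all tested genes were called higher and lower in MP8, 26.2% and 25.5% in Tas, and 30.6% and 25.7% in Pph. Their medians were 0.20, -0.13 and 0.29. Fat4 and Dchs1, the receptor and ligand of a planar polarity pair of giant cadherins, were both higher in MP8 (3.21 ± 0.39 and 1.33 ± 0.15, edgeR adjusted p = 2.92e-08 and 4.83e-09), and Dchs1 also in Pph (0.81 ± 0.15, edgeR adjusted p = 4.62e-05). Fat4 was lower in Tas (-1.91 ± 0.73, edgeR adjusted p = 0.0293), at 0.0666 ± 0.0736 CPM, against 0.272 ± 0.157 CPM in WT (SD, n = 3 each). Its mean reached the filter level of 0.504 CPM only in MP8, at 2.55 CPM, with 0.324 CPM in Pph. Fat4 thus passed the filter through MP8, and a difference was built into its selection. Fat3, another giant cadherin, was lower in Tas (-1.73 ± 0.61, edgeR adjusted p = 0.0187) and not called in MP8 (0.68 ± 0.45) or Pph (0.50 ± 0.46). Its level was near the limit of detection in Tas, at 0.135 ± 0.0763 CPM, against 0.466 ± 0.284 CPM in WT (SD, n = 3 each). The WT mean of Fat3 lay under the filter level, so the gene passed through null libraries. Fat2 was lower in MP8 (-1.09 ± 0.26, edgeR adjusted p = 0.000505) and Pph (-1.0 ± 0.25, edgeR adjusted p = 0.00132) and not called in Tas (-0.17 ± 0.23).

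Of 8 tested partners of Pcdh15 and the cadherin-related genes at tip links and microvilli, 1 was higher and 1 lower in MP8, 0 and 2 in Tas, and 3 and 0 in Pph, with medians of -0.15, -0.27 and 0.15. Over all tested genes, 30.0% were higher and 32.2% lower in MP8, 26.2% and 25.5% in Tas, and 30.6% and 25.7% in Pph. The all-gene medians were -0.02, -0.01 and 0.04. The lower count in Tas and the higher count in Pph lay near these shares. Ush1c, the scaffold harmonin, was higher in MP8 (1.46 ± 0.14, edgeR adjusted p = 5.09e-10), lower in Tas (-1.28 ± 0.19, edgeR adjusted p = 1.32e-06) and stood at 0.04 ± 0.16 in Pph, where Pcdh15 had 4.28, 3.20 and 2.32 in MP8, Tas and Pph. Whrn, the scaffold whirlin, was lower in Tas (-0.78 ± 0.13, edgeR adjusted p = 8.43e-06) and not called in MP8 (-0.10 ± 0.12) or Pph (0.26 ± 0.12). Ush1g, the scaffold Sans, and Cib2, a calcium-binding partner of the transduction channel, were higher in Pph (1.11 ± 0.36 and 0.94 ± 0.29, edgeR adjusted p = 0.0103 and 0.00699) and not called in MP8 (0.26 ± 0.40 and -0.55 ± 0.34) or Tas (-0.02 ± 0.41 and -0.73 ± 0.34). The WT mean of Ush1g was 0.461 CPM, under the filter level of 0.504 CPM, so the gene passed through null libraries.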

How the data were processed

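RNA of 12 mouse ES cell libraries (4 groups, 3 each) was measured by RNA-seq. Per the submitters' processing notes FastQC, HISAT2 2.1.0, RSEM, DESeq 1.26.0 and build GRCm39 were used; their roles are not given in the sources used here. The deposited tables hold the authors' estimated counts per gene, 32.5% of those above 0 not whole, and the authors' TPM, scaled to gene length and library. Counts were rounded and fitted in edgeR 4.0.16 (R 4.3.3; TMM scaling, filterByExpr, quasi-likelihood test, 4 groups in 1 fit, Benjamini-Hochberg over 16840 genes, threshold 0.05), tested on simulated data first. Limits of 3 counts cover counting error only. Alternatives used other scalings, no filter, DESeq2 1.42.0, limma 3.58.1 on log2(TPM + 0.1) and log2(TPM + 1), the 2 groups alone, a replicate block and leaving out each library. Gene spans came from GENCODE M21, promoters from RefSeq (17 of 28 tested genes matched), both on GRCm38. All tested members are named; companion genes are the 4 per list with the largest change. Members and lists were chosen with earlier results of these data known. Counts of companion and marker lists were not restricted to genes passing the filter on their WT level.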

Additional observations from a re-analysis of the deposited data

How the results depend on the processing

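Over the 6 comparisons and all alternatives, 250 counts of called cadherin genes stayed within 1.5 times the reported one. The 2 exceptions were genes lower in Tas than in Pph with limma on log2(TPM + 1) (7 in place of 12) and genes lower in Pph than in WT without Pph replicate 2 (2 in place of 1). Without 1 library at a time, genes higher than in WT numbered 17 to 20 in MP8, 8 to 11 in Tas and 15 to 18 in Pph, and genes lower numbered 2 to 3, 5 to 6 and 1 to 2. The fall of Cdh13 in Tas turned to 0.36 on log2(TPM + 0.1) and 0.19 on log2(TPM + 1). Causes of these changes were not tested.

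Of the companion list counts, 719 stayed within 1.5 times and 37 did not, all of them counts of lower genes. On both TPM scales the lower counts were 6 catenins and partners in MP8 (10 reported) and 3 in Tas (6), 3 regulators of the transition in MP8 (6), 4 in Tas (7) and 2 in Pph (4), 0 proteases in MP8 (1) and 0 in Tas (2), and 0 cadherin relatives in Tas (4) and 0 in Pph (1). Relatives lower in MP8 (4) numbered 2 on log2(TPM + 0.1) and 1 on log2(TPM + 1). Proteases lower in Tas numbered 1 with no filter, with DESeq2 and with the 2 groups alone, and relatives lower in Tas 2 with the 2 groups alone. Tip-link partners lower in MP8 (1) numbered 0 with RLE scaling, DESeq2 and the 2 groups alone. Without 1 library at a time, proteases lower in Tas ran from 0 to 2, relatives lower in Tas from 2 to 4 and tip-link partners lower in MP8 from 0 to 2.

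Replicate numbers did not pair the libraries (same-number correlations -0.227 to 0.086 over 18 pairs). With the replicate block, 19 genes were higher and 3 lower in MP8, 10 and 5 in Tas, and 16 and 1 in Pph. Depth limits genes with few counts per library, such as Pcdh8, Cdh20 and Cdhr18.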
